A study of Mus musculus with 34 samples.

Results

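Of the 637 genes named by a single symbol in both value tables of this series, 8 belong to the cytosolic ribosome: the ribosomal protein genes Rpl29, Rpl3, Rplp0, Rplp1, Rplp2, Rps2 and Rps26, and Rn28s1, the 28S ribosomal RNA. They were chosen by symbol, from probes annotated with 1 gene, and had 10 probes in each table, with a pair of probes each for Rplp0 and Rplp2. Total RNA of diaphragm and hindlimb muscle of BL10 mice and of mdx mice, which carry a mutation in the dystrophin gene, was hybridised to 34 2-colour arrays. The groups were 8: each combination of tissue, strain and treatment (none, or L-arginine, the substrate of nitric oxide synthases), with 1 array at 3, 5, 9 and 12 weeks of age. The untreated mdx groups had a further 12-week array (Sample 1 and Sample 2), giving 18 untreated and 16 L-arginine arrays.

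The channel labels pair RNA of the named age with RNA of the same strain at 12 weeks, so each value is a ratio and not a level. The labels do not say if the 12-week RNA of the L-arginine arrays came from treated mice. They also do not name the animals behind each array, so a p-value here covers the scatter among arrays alone, and that scatter may be technical. The ratio was read as the named age over the 12-week RNA, a direction that is likely but not stated. With the ratio turned, every higher value below is a lower one. The lowest correlation between untreated arrays of unlike strain was -0.41 (Pearson, over probes), so a single direction for all of them is not settled by the values. The L-arginine and untreated arrays form separate tables of different platforms, so a difference between them holds treatment, platform and table at once, and these cannot be told apart. For 1 array, titled as treated BL10 hindlimb at 9 weeks, both channels are labelled mdx, and its title was followed. Dmd, the gene mutated in mdx mice, had no probe of that single name, so the strain labels were not checked on it. Ratios give no level, so tissue identity could not be read from them, although 12 of 20 skeletal muscle markers were measured. On 3 untreated BL10 arrays (diaphragm at 3 weeks, hindlimb at 3 and 12 weeks) over 100 probes had values of 0 or below, which were treated as missing.

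Ribosomes translate messenger RNA in all cells, with a large subunit built on the 28S ribosomal RNA and a small subunit that reads the message. Most vertebrate messages of ribosomal proteins begin with a run of pyrimidines, the terminal oligopyrimidine tract, through which their translation follows nutrient and growth signals. In skeletal muscle, ribosome content is known to follow growth, loading and regeneration, and it is high in the proliferating cells of repairing muscle. Bulk RNA cannot tell fewer cells of a type from less RNA per cell.

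RefSeq promoter sequences (build GRCm38.p6) were found for 4 of the 8 genes. The 30 bases from 10 before to 20 after the annotated start are shown because these letters are a feature that the choice by symbol did not use. Capitals mark the longest run of C and T on the strand that reads as the RNA does. The windows are chr5:115559457-115559486 on the + strand for Rplp0, chr7:141447641-141447670 on the + strand for Rplp2, chr10:128626487-128626516 on the - strand for Rps26, and chr17:24720053-24720082 on the + strand for Rps2. The Rps2 gene is annotated at chr17:24718121-24721927, so its window lies inside the gene and not at the 5' end of the locus.
Rplp0: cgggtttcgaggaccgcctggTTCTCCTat
Rplp2: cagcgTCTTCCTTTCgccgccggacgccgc
Rps26: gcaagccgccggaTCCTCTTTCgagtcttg
Rps2: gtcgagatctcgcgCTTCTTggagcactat
The runs were 7, 10, 9 and 6 bases long. They began at positions 12, -5, 4 and 5 relative to the annotated start, so none began at that start. The run of Rplp2 spanned the annotated start, which falls on a C within it, and the other runs began after it. Of all 32851 promoters of the table, 17.9% had a run of at least 7 in this window, 4.77% of at least 10, 7.11% of at least 9 and 28.7% of at least 6. The letters are a description of these windows and not a measured site.

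In the comparison of both tables, Rplp0 in BL10 hindlimb and Rpl29, Rpl3 and Rn28s1 in mdx hindlimb passed the test, all with higher ratios in the L-arginine table, and none passed in the diaphragm. Of the 128 values of the 8 genes in the L-arginine table, 108 lay above a ratio of 1, against 76 of 143 among untreated arrays. The share of all genes above 1 ran from 40.0% to 71.5% over L-arginine arrays and from 32.9% to 61.2% over untreated arrays. On all 16 L-arginine arrays the median of the 8 genes lay above the median of all genes of the array, and on 9 of 18 untreated arrays. Of the 8 genes, 5 to 8 lay above their array's median on each L-arginine array, and 2 to 7 on each untreated array. On the 4 L-arginine arrays at 12 weeks, whose channels carry the same label, the members' median log2 ratio was 0.18 in BL10 diaphragm, 0.41 in mdx diaphragm, 0.37 in BL10 hindlimb and 0.50 in mdx hindlimb. The all-gene medians of these arrays were 0.01, -0.03, 0.14 and 0.24. On the 6 untreated 12-week arrays, labelled in the same way, the members' median ran from -0.20 in BL10 hindlimb to 0.56 in mdx diaphragm (Sample 1), so the groups overlapped.

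**Figure D1:**
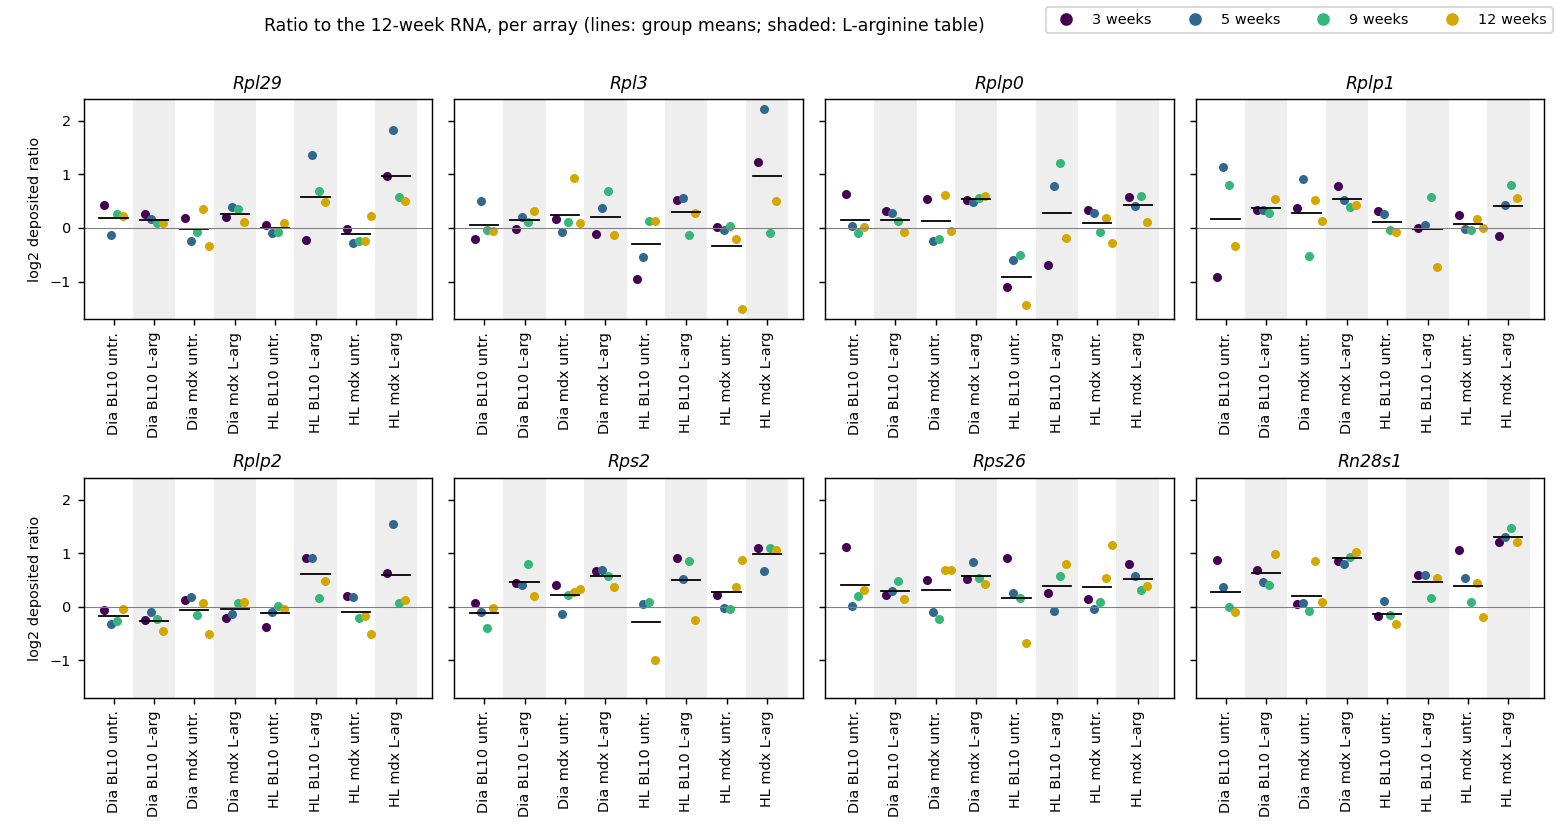
Log2 deposited ratio of each gene (y axis) on every array, by group (x axis; Dia, diaphragm; HL, hindlimb; untr., untreated; L-arg, L-arginine table, shaded), with points coloured by age and lines at group means. Rn28s1 lies between ratios of 2.30 and 2.76 on the L-arginine mdx hindlimb arrays, and Rplp0 between 0.371 and 0.707 on the untreated BL10 hindlimb arrays.

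Rn28s1, the RNA on which the large subunit is built, was above a ratio of 1 on all 16 L-arginine arrays and on 11 of 18 untreated arrays. On the 12-week arrays, whose channels carry the same label, its ratio ran from 1.45 to 2.31 with L-arginine and from 0.80 to 1.82 without. Its ratios above 1 there thus came without a labelled difference between the channels. Among the genes of its array Rn28s1 stood at a median percentile of 94.4 in the L-arginine table and 55.6 in the untreated table. The other genes with median percentiles over 80 in the L-arginine table were Rps2 (90.6), Rplp1 (84.0), Rps26 (83.5) and Rplp0 (81.7). Rpl29 stood at 78.2, Rpl3 at 71.9 and Rplp2 at 53.1. In the untreated table these medians were 58.2 for Rps2, 67.6 for Rplp1, 71.1 for Rps26, 40.5 for Rplp0, 39.5 for Rpl29, 45.9 for Rpl3 and 42.9 for Rplp2. The median percentile over all arrays of a table was thus higher in the L-arginine table for all 8 genes. The share of all genes for which this holds was not counted. Within single groups the median was lower with L-arginine for some members, such as Rpl29 in BL10 diaphragm and Rplp1 in BL10 hindlimb.

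**Figure D2:**
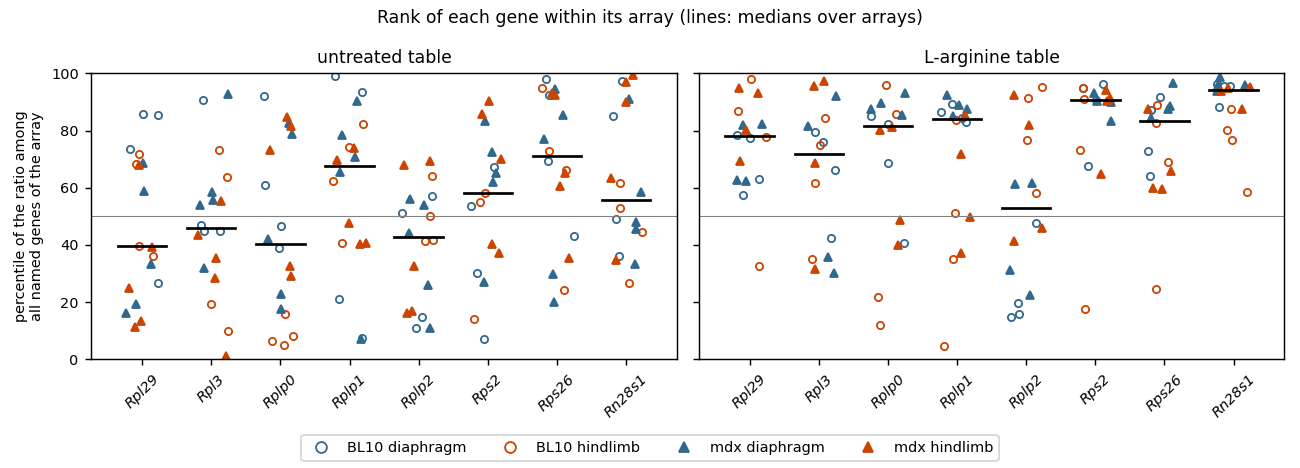
Percentile of each gene's ratio among all named genes of the same array (y axis) in the untreated table (left) and the L-arginine table (right), with 1 point per array and lines at medians over arrays. The median of Rn28s1 is 55.6 on the left and 94.4 on the right, and that of Rplp2 is 42.9 and 53.1.

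Among the large-subunit proteins, Rpl29 and Rpl3 were called between tables in mdx hindlimb. Rpl29, a small basic protein of the large subunit, had ratios of 1.97, 3.55, 1.49 and 1.42 at 3, 5, 9 and 12 weeks in L-arginine mdx hindlimb. In untreated mdx hindlimb it had 0.99, 0.82, 0.85, 0.84 (Sample 1) and 1.17 (Sample 2) in the same order of age. Every L-arginine array lay above every untreated one, and the difference between tables was 1.10 ± 0.22 (log2, SE; adjusted p 0.0131, limma). Rpl3, a core protein close to the peptidyl transferase centre, had 2.35, 4.63, 0.94 and 1.41 at these ages in L-arginine mdx hindlimb. In untreated mdx hindlimb its ratios were 1.01, 0.97, 1.03, 0.87 and 0.35. The groups of Rpl3 overlapped, since its 9-week L-arginine array lay below 3 of the untreated ones, and the 5-week L-arginine and the Sample 2 array stood apart. Its difference was 1.30 ± 0.36 (log2, SE; adjusted p 0.0440, limma), and 0.93 (adjusted p 0.275) without the 5-week L-arginine array.

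Rn28s1 was the third member called in mdx hindlimb. Its ratios were 2.30, 2.46, 2.76 and 2.31 at 3, 5, 9 and 12 weeks with L-arginine. Without treatment they were 2.09, 1.46, 1.06, 1.36 (Sample 1) and 0.88 (Sample 2) in that order. All treated arrays lay above all untreated ones, and the difference was 0.88 ± 0.23 (log2, SE; adjusted p 0.0286, limma).

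In mdx hindlimb 3 of 8 members were thus called, all higher, where 3.32% of the 632 genes tested were called (18 higher and 3 lower). All 8 members were above 0 in this difference, as were 69.1% of the genes tested. The members' median was 0.69 on the log2 scale, beside 0.21 for all genes. Rps2, a small-subunit protein near the entry of the messenger RNA, gave 0.71 (adjusted p 0.111), and Rplp2, an acidic stalk protein, gave 0.67 (adjusted p 0.107). Rplp1, the partner of Rplp2, gave 0.32, Rplp0, the base of the stalk, 0.31, and Rps26, a small-subunit protein at the exit of the messenger RNA, 0.17. These 5 did not pass the test.

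The calls depended on the scaling and on single arrays. Subtracting each array's median lowered the all-gene median in mdx hindlimb from 0.21 to 0.10 and left 1 member called, Rpl29. Rn28s1 then gave 0.78 (adjusted p 0.0727, limma) and Rpl3 1.19 (adjusted p 0.0732). Quantile normalisation, done within each table, left Rn28s1 at 0.13 (adjusted p 0.909, limma). No member was called without the untreated 9-week mdx hindlimb array. The count was 1 without the untreated 5-week array, without Sample 2, or without the L-arginine array at 3 or at 5 weeks. All 8 members stayed above 0 after centring, quantile normalisation and removal of the print-order trend (print order taken as each table's probe order). With that trend removed, 3 genes were called higher and 5 lower in mdx hindlimb, against 18 and 3.

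The probes of Rpl29, Rpl3 and 1 of Rplp2 lie within 12 positions of each other in the L-arginine table, and neighbouring probes moved with them. The mean over L-arginine mdx hindlimb arrays of the median log2 ratio of the probes around Rpl29 was 0.37, where Rpl29 itself averaged 0.97. On single arrays the median of these probes ran from -0.04 to 1.05, and Rpl29 from 0.51 to 1.83. Around Rpl3 the mean was 0.37, with 1.08 on the highest array, where Rpl3 itself averaged 0.96. With a running median over 51 neighbours subtracted, Rpl29 gave 0.69 (adjusted p 0.0524), Rpl3 0.96 (adjusted p 0.0572) and Rn28s1 0.97 (adjusted p 0.0217). With the same subtraction Rplp0 was no longer called in BL10 hindlimb (0.63, adjusted p 0.158), and Rn28s1 was called between strains in L-arginine hindlimb (0.92, adjusted p 0.0251).

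In BL10 hindlimb 1 of 8 members was called, where 4.75% of 632 genes were called (25 higher and 5 lower). Rplp0, which anchors the stalk of the large subunit and is widely used as a reference gene, had ratios of 0.465, 0.663, 0.707 and 0.371 at 3, 5, 9 and 12 weeks in untreated BL10 hindlimb. With L-arginine it had 0.622, 1.72, 2.33 and 0.874, as means of its probes on the log2 scale. The 9-week value of 2.33 is that of 1 probe, since the other had a value below 0 there. The probe with all 4 values had 1.84, 2.08, 2.33 and 1.14, and the other 0.21, 1.42 and 0.67 at 3, 5 and 12 weeks, so the first lay above the untreated range of 0.371 to 0.707 on every array and the second on the 5-week array alone. The groups overlapped at 1 array, the 3-week L-arginine array, which lay below 2 of the untreated ones. The difference was 1.19 ± 0.29 (log2, SE; adjusted p 0.0218, limma). It was 0.67 (adjusted p 0.609) without the 3 untreated BL10 arrays with over 100 values of 0 or below, an alternative chosen after seeing the data. It was 0.89 (adjusted p 0.0869) without the 9-week array whose channel labels name mdx. It also missed the threshold without the untreated array at 3 weeks (1.00, adjusted p 0.108) or at 12 weeks (1.02, adjusted p 0.0914), and without the L-arginine array at 5 weeks (1.03, adjusted p 0.0835).

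The other members in BL10 hindlimb gave values that did not pass. As the mean of its probes, Rplp2 had 0.769, 0.940, 1.01 and 0.978 without treatment and 1.88, 1.89, 1.12 and 1.39 with L-arginine. These means did not overlap, and the difference was 0.74 (adjusted p 0.0680, limma). Its single probes ran from 0.95 to 1.45 and from 1.32 to 2.74 with L-arginine. Without treatment they ran from 0.80 to 1.45 and from 0.61 to 0.99. Rn28s1 had 0.89, 1.08, 0.90 and 0.80 against 1.5, 1.51, 1.12 and 1.45, again with no overlap, and 0.60 (adjusted p 0.144). Of 632 genes, 6.8% had every L-arginine array above every untreated one in BL10 hindlimb, and 7.59% in mdx hindlimb, where Rpl29 and Rn28s1 did. Rps2 gave 0.75 in BL10 hindlimb, Rpl3 0.61, Rpl29 0.58, Rps26 0.22 and Rplp1 -0.14. The 3-week untreated array gave Rps2 no positive value and so did not enter its fit. The median of the 8 was 0.60, beside 0.24 for all genes, and 7 were above 0, as were 71.4% of genes.

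**Figure D3:**
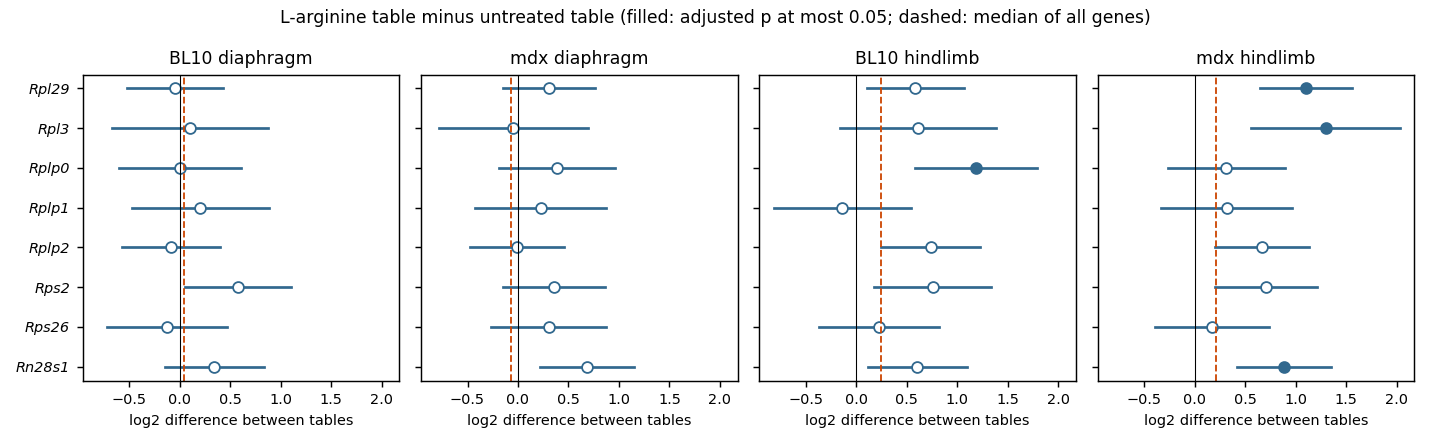
Difference of the log2 ratio between the L-arginine and the untreated table (x axis) for each gene (y axis) in the 4 combinations of strain and tissue; bars are 95% intervals from limma, filled points have an adjusted p of at most 0.05 and dashed lines are medians over 632 genes. Filled points are Rplp0 in BL10 hindlimb and Rpl29, Rpl3 and Rn28s1 in mdx hindlimb.

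In the diaphragm no member was called in either strain. In BL10 diaphragm 0% of 632 genes were called (limma, adjusted p), with 47 genes (7.44%) and 1 member, Rps2, at an unadjusted p under 0.05. The members' median difference was 0.05, equal to the 0.05 of all genes. Of the 8, 5 were above 0 (7 after quantile normalisation, 4 with the print-order trend removed), beside 55.2% of genes. Rps2 had 1.05, 0.93, 0.76 and 0.99 at 3, 5, 9 and 12 weeks without treatment and 1.36, 1.33, 1.74 and 1.15 with L-arginine, so its groups did not overlap, as for 5.06% of genes. Its difference of 0.58 ± 0.25 (log2, SE) had an adjusted p of 0.529. In mdx diaphragm 0.633% of genes were called, all 4 lower, and the members' median was 0.30 beside -0.07 for all genes. Rn28s1 had 1.81, 1.74, 1.91 and 2.04 with L-arginine, and 1.04, 1.05, 0.95, 1.82 (Sample 1) and 1.06 (Sample 2) without. Only Sample 1 reached the L-arginine values, and the difference was 0.68 (adjusted p 0.185), or 0.87 (adjusted p 0.0198) without Sample 1.

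Whether the table difference was larger in hindlimb than in diaphragm was tested as a difference of differences. No member passed, where 0.633% of genes did (limma), all 4 higher in hindlimb. Rplp2 gave 0.75 ± 0.23 (log2, SE; adjusted p 0.104), Rpl29 0.71 ± 0.23 (adjusted p 0.111) and Rpl3 0.92 ± 0.36 (adjusted p 0.180), and these 3 had an unadjusted p under 0.05, as 17.6% of genes had. The interval of Rn28s1 ran from -0.25 to 0.70. No member and 0% of genes were called for a table difference that differs between mdx and BL10, with 63 genes (9.97%) and no member at an unadjusted p under 0.05 (limma).

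Strains were compared within each tissue and table, as ratios to each strain's own 12-week RNA. In L-arginine hindlimb Rn28s1 had 2.30, 2.46, 2.76 and 2.31 in mdx and 1.5, 1.51, 1.12 and 1.45 in BL10, with no overlap, as for 4.27% of 633 genes. Over the 4 mdx arrays the mean log2 ratio was 1.29 ± 0.12 (SD), and over the 4 BL10 arrays it was 0.47 ± 0.21. The difference of 0.82 ± 0.17 (log2, SE) had an adjusted p of 0.0572 (limma) and so missed the threshold. No member was called here, where 0.158% of genes were. The lowest BL10 value, 1.12, came from the 9-week array with mdx channel labels, and without that array the difference was 0.72 (adjusted p 0.118). Fitted over 1192 probes in place of genes, the same difference had an adjusted p of 0.0321. The blocked fit, with diaphragm and hindlimb arrays of the same label paired, gave an adjusted p of 0.0490. In this comparison 7 of 8 members were above 0 (5 after quantile normalisation), as were 61.5% of genes. The members' median was 0.41, beside 0.13 for all genes. Rpl3 gave 0.66, Rps2 0.47, Rplp1 0.44 and Rpl29 0.39, and the smallest adjusted p among these was 0.240, for Rps2. The 3 macrophage markers measured, of 9, also lay higher in mdx than in BL10 hindlimb here (median difference 1.00, 1 called). Their mean on single arrays ran from 1.07 to 1.22 (log2) in mdx and from -0.42 to 0.37 in BL10. The 5 fibroblast and matrix markers measured, of 9, lay higher in mdx as well (median difference 0.61, none called). Their mean on single arrays ran from 1.11 to 1.86 in mdx and from 0.25 to 1.20 in BL10. The part of both marker lists in the value of Rn28s1 was not tested.

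In L-arginine diaphragm all 8 members were above 0 (median 0.19, all genes 0.02), as were 55.1% of genes. Of the members, 7 were above 0 after quantile normalisation or with the print-order trend removed. None passed, where 0.158% of genes did. Rplp0 had 1.44, 1.39, 1.48 and 1.51 in mdx and 1.24, 1.21, 1.09 and 0.945 in BL10, the only member whose strains did not overlap, as for 4.27% of genes. Its difference was 0.39 ± 0.30 (log2, SE; adjusted p 0.998, limma). In untreated hindlimb Rplp0 had 1.26, 1.22, 0.949, 1.14 (Sample 1) and 0.823 (Sample 2) in mdx, all above the 0.371 to 0.707 of BL10, as for 2.98% of 637 genes. The difference was 1.02 ± 0.27 (log2, SE; adjusted p 0.180, limma). Without the untreated BL10 hindlimb array at 9 weeks it was 1.23 (adjusted p 0.0447). No member was called in untreated hindlimb, where 0.157% of genes were. In untreated diaphragm Rplp0 gave 0.00 with a 95% interval from -0.57 to 0.57, and no member passed; 0% of genes did (63 genes, 9.89%, and no member at an unadjusted p under 0.05).

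Tissues were compared within each strain and table, and no member passed in any of the 4 comparisons. The share of genes called was 0.157% in untreated BL10 and 0% in the other 3, where 23 untreated mdx (3.61%), 79 L-arginine BL10 (12.5%) and 152 L-arginine mdx genes (24%) had an unadjusted p under 0.05 (limma). Among the members 0, 1 and 3 did. In untreated BL10 mice every hindlimb value of Rplp0 lay below every diaphragm value (1.54, 1.02, 0.942 and 1.02 at 3, 5, 9 and 12 weeks), as for 5.18% of genes, and the difference was -1.06 ± 0.28 (log2, SE; adjusted p 0.258). In L-arginine BL10 mice Rplp2, as the mean of its probes, had 0.840, 0.929, 0.853 and 0.735 in diaphragm, all below its hindlimb values. In that direction 4.42% of genes did not overlap. The difference was 0.87 ± 0.25 (log2, SE; adjusted p 0.316). Fitted singly, the Rplp2 probes gave 0.40 and 1.35. The first overlapped between tissues, with 0.72 to 1.07 in diaphragm and 0.95 to 1.45 in hindlimb. In L-arginine mdx mice Rpl29 and Rn28s1 lay higher on every hindlimb than on every diaphragm array, as for 9.95% of genes. Rpl29 had 1.15, 1.31, 1.28 and 1.08 in diaphragm and differed by 0.71 (adjusted p 0.178), and Rn28s1 differed by 0.39 (adjusted p 0.180).

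Age was compared with 12 weeks over the groups of each table. No member and 0% of genes were called at 3, 5 or 9 weeks in either table (limma). The counts at an unadjusted p under 0.05 were 51 (8.01%), 21 (3.3%) and 21 (3.3%) genes in the untreated table. They were 29 (4.58%), 50 (7.9%) and 22 (3.48%) in the L-arginine table. Rpl29 at 5 weeks (0.64, adjusted p 0.591) and Rps2 at 9 weeks (0.48, adjusted p 0.992), both in the L-arginine table, were the members with an unadjusted p under 0.05. Rn28s1 in the untreated table had mean log2 ratios of 0.46 ± 0.60 (SD, n = 4) at 3 weeks, 0.27 ± 0.22 at 5 weeks, -0.04 ± 0.10 at 9 weeks and 0.13 ± 0.45 (SD, n = 6) at 12 weeks. In the L-arginine table it had 0.83 ± 0.27, 0.79 ± 0.37, 0.74 ± 0.58 and 0.94 ± 0.29 (SD, n = 4 each). In the L-arginine table the SD within an age exceeded every step between successive ages, and in the untreated table only the step from 5 to 9 weeks exceeded the SDs on both sides of it. Untreated BL10 diaphragm had the falling values 1.84, 1.29, 1.00 and 0.93 from 3 to 12 weeks, with 1 array at each age.

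Ordered by mean log2 ratio over the 8 groups, L-arginine mdx hindlimb came first for Rpl29 (0.97 ± 0.61, SD, n = 4), Rpl3 (0.96 ± 0.99), Rps2 (0.98 ± 0.21) and Rn28s1 (1.29 ± 0.12). L-arginine mdx diaphragm came first for Rplp0 (0.54 ± 0.05), Rplp1 (0.54 ± 0.17) and Rps26 (0.58 ± 0.18), and L-arginine BL10 hindlimb for Rplp2 (0.62 ± 0.37). The step from the first to the next group exceeded the larger SD of both only for Rn28s1 (next 0.90 ± 0.10, mdx diaphragm) and Rps2 (next 0.57 ± 0.14, mdx diaphragm). Untreated BL10 hindlimb came last for Rplp0 (-0.91 ± 0.44), Rps2 (-0.28 ± 0.62, n = 3), Rps26 (0.17 ± 0.65) and Rn28s1 (-0.13 ± 0.18). For Rplp0 the gap to the group above, untreated mdx hindlimb at 0.09 ± 0.26, exceeded the larger SD. Rps26 and Rplp1 varied widely within some untreated groups: Rps26 ran from 0.63 to 1.89 in untreated BL10 hindlimb, and Rplp1 from 0.53 to 2.20 in untreated BL10 diaphragm.

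The probes of 1 gene did not always agree. The Rplp0 probes correlated at 0.74 over 18 untreated arrays and at 0.01 over 15 L-arginine arrays, where the same probe was higher on all 15. In untreated BL10 hindlimb both were low, with means of -1.11 ± 0.54 and -0.70 ± 0.62 (log2, SD, n = 4). In L-arginine BL10 hindlimb they went opposite ways, with 0.84 ± 0.45 (SD, n = 4) and -0.77 ± 1.39 (SD, n = 3), so the called difference of Rplp0 rests on 1 of its L-arginine probes. The Rplp2 probes correlated at -0.05 over 18 untreated and 0.17 over 16 L-arginine arrays. In L-arginine hindlimb they pointed opposite ways between strains, with 1.05 (adjusted p 0.0805) and -1.10 (adjusted p 0.0906, limma over 1192 probes), so their mean of -0.02 describes neither. In L-arginine BL10 hindlimb, the group ranked first for Rplp2, its probes averaged 0.28 ± 0.26 and 0.95 ± 0.50 (log2, SD, n = 4). In L-arginine mdx hindlimb they averaged 1.34 ± 0.84 and -0.15 ± 0.53, so the probes order both groups in opposite ways. The correlations between probes are descriptions over arrays that share a reference and a platform. Ribosomal protein genes have many near-identical pseudogene copies, and the sources used here do not say whether the probes tell these apart.

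**Figure D4:**
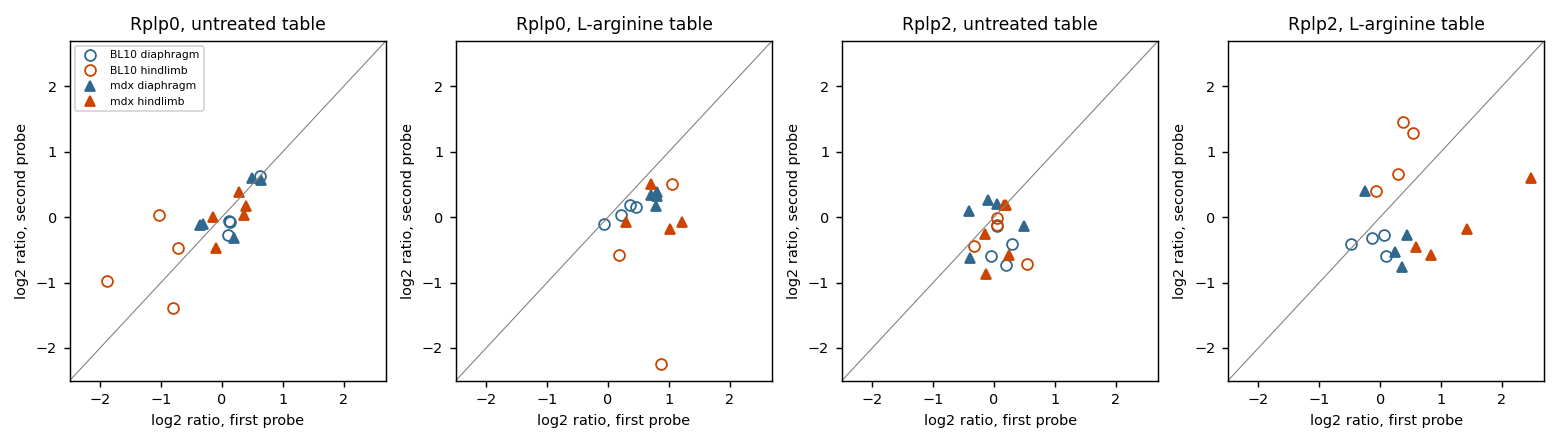
Log2 ratio of the second probe (y axis) against that of the first (x axis) for Rplp0 and Rplp2 in each table, with 1 point per array with both values positive and a line of equality. The Rplp0 probes follow each other in the untreated table (r = 0.74, n = 18) and not in the L-arginine table (r = 0.01, n = 15).

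The members did not move as a block. Over 28 pairs the median Pearson r was 0.14 in the untreated table and 0.14 in the L-arginine table, beside 0.06 for all gene pairs in each. The extremes were -0.45 (Rpl3 with Rps26) and 0.74 (Rps2 with Rps26) over 18 untreated arrays, and -0.41 (Rplp1 with Rplp2) and 0.76 (Rpl3 with Rplp2) over 16 L-arginine arrays. Rpl3 and 1 of the Rplp2 probes lie close together in the probe order of the L-arginine table. The 5 other genes most like the members' mean over the arrays were Col1a2, a chain of type I collagen (r = 0.88, n = 34), the cyclin gene Ccnd3 (r = 0.82, n = 32), Ssc5d (r = 0.82, n = 34), Vapa (r = 0.75) and Tpm3, a tropomyosin (r = 0.75). The median over 620 genes was 0.17. Within tables Col1a2 had 0.74 (untreated) and 0.84 (L-arginine), and after array centring 0.87. These arrays share tables, so the difference between tables enters each r. Vapa and Tpm3 fell to 0.66 and 0.63 after centring, and Eef1a1 and Postn took their places.

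Some markers of other cells also lay higher in the L-arginine table in mdx hindlimb. Of 9 fibroblast and matrix markers 5 were measured (Col1a2, Postn, Fmod, Bgn, Lox). All 5 were higher in the L-arginine than in the untreated table, with a median difference of 1.26, and 3 were called. Their mean on single arrays ran from 1.11 to 1.86 (log2) with L-arginine and from 0.02 to 0.67 without. In BL10 hindlimb 4 of the 5 were above 0 and 2 were called (median 1.00). Of 9 macrophage markers 3 were measured (Lyz2, C1qb, Cd68), with a median difference of 0.88 in mdx hindlimb and no call, and of -0.47 in BL10 hindlimb. Their mean on single mdx hindlimb arrays ran from 1.07 to 1.22 (log2) with L-arginine and from -0.02 to 1.30 without. The highest untreated array thus lay above every L-arginine array. Of 12 skeletal muscle markers measured, 8 were above 0 in mdx hindlimb (median 0.07), where 69.1% of all genes were, and 1 was called. Of 4 erythroid markers none was measured, and the 2 adipocyte and 3 liver markers measured had no call in any comparison. The part of these markers in the values of the ribosomal genes was not tested.

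Of 37 translation genes listed beside the ribosome, 7 were measured (Eef1a1, Eef1a2, Eif3d, Eif4e, Eif4g2, Nap1l1 and Tpt1). In mdx hindlimb all 7 were above 0 between tables (median 0.47, all genes 0.21), as were 69.1% of genes, and 1 was called. Eef1a1, the elongation factor that brings aminoacyl-tRNA to the ribosome, gave 0.96 ± 0.24 (log2, SE; adjusted p 0.0259, limma). Eef1a2, its muscle form, gave 0.56 (adjusted p 0.0837) and Eif4g2, an initiation factor, 0.59 (adjusted p 0.256). In BL10 hindlimb all 7 were above 0, as were 71.4% of genes, and none was called (median 0.23, all genes 0.24). Eif4e, which binds the cap of messages, gave 0.65 (adjusted p 0.0629, limma). Of 20 genes of ribosome assembly and growth signalling none was measured. The mitochondrial ribosomal proteins Mrpl13, Mrpl49 and Mrps18a, which serve the ribosomes inside mitochondria, were not called in any comparison. In mdx hindlimb they gave 0.41, -1.08 and 0.25 between tables, and Mrpl49 had the smallest adjusted p of these, 0.133.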

How the data were processed

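The deposited values, per the labels 2-colour arrays of total RNA, hold 1200 probes per table in a unit read from the values as a linear ratio of the channels (medians of 0.73 to 1.08 untreated and 0.94 to 1.22 L-arginine); the sources used here do not give the scanner, background correction, normalisation or dyes. Ratios were turned into log2, values of 0 or below (0 to 225 untreated, 2 to 36 L-arginine per array) became missing, and the probes of 1 symbol (812 per table by the platform annotation; 99 with several symbols and 289 not listed were left out) were averaged per gene. Genes with a value on at least 75% of arrays were tested in R 4.3.3 by limma 3.58.1 (linear models with moderated variances, Benjamini-Hochberg adjustment over all genes, threshold 0.05): 637 untreated and 633 L-arginine genes with group and age as terms, and 632 genes over both tables with age within table. The fit was tested on simulated data with independent noise, which does not hold the shared movement of neighbouring probes. Figures used Python 3.11.15. Members and gene lists were chosen with earlier results of these data known. All 8 members are named in each comparison family, with the genes nearest in correlation (value on at least 30 arrays) and up to 3 translation genes. The number of arrays limits the precision. Alternatives covered scaling, print order, missing values, probe averaging, age, blocks and each array left out. Quantile normalisation was done within each table and did not bring the tables to a shared distribution, which enters any difference between tables after it.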

Additional observations from a re-analysis of the deposited data

Results flagged for a closer look

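Of 63 combinations of gene and group with 4 or 5 arrays, 6 held an array far from the others of its group; chance gives about 1 in 20. In untreated BL10 diaphragm Rplp0 had 1.54 at 3 weeks, with the others from 0.942 to 1.02. In untreated mdx diaphragm the 12-week Sample 1 array had 1.90 for Rpl3 (others 0.95 to 1.12) and 1.82 for Rn28s1 (others 0.95 to 1.06). In untreated mdx hindlimb the 12-week Sample 2 array had 0.35 for Rpl3, with the others from 0.87 to 1.03. In L-arginine BL10 hindlimb Rn28s1 had 1.12 at 9 weeks, with the others from 1.45 to 1.51; this array names mdx in both channel labels. In L-arginine mdx hindlimb Rps2 had 1.58 at 5 weeks, with the others from 2.08 to 2.15.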

How the results depend on the processing

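No member's call turned its direction. Of 45 alternatives, 34 of which left out 1 array, the call was kept in 43 for Rpl29, 35 for Rn28s1 and 22 for Rpl3 (mdx hindlimb, between tables), and in 36 for Rplp0 (BL10 hindlimb). The 3 members called in mdx hindlimb were 1 after array median centring, quantile normalisation, removal of the print-order trend, or with values of 0 or below at the array's lowest positive ratio, and 0 to 4 with 1 array left out. The 1 in BL10 hindlimb was 0 after centring, with the print-order trend removed, without the 12-week arrays, and, as added after seeing the data, without the arrays with over 100 values of 0 or below; it was 2 (Rps2 and Rplp2) with such values at the lowest positive ratio, and 0 to 2 with 1 array left out. In L-arginine hindlimb 1 member, Rn28s1, differed between strains with the print-order trend removed, with values on every array, with no age term, with the replicate block and with every probe separately, and 0 to 1 with 1 array left out (1 without the 5-week BL10 array). Quantile normalisation gave 1 member between tables in BL10 diaphragm (Rps2, 0.97, adjusted p 0.0427) and 1 in mdx diaphragm (Rn28s1, 0.99, adjusted p 0.0450). With 1 array left out, 0 to 1 were called in mdx diaphragm (1 without Sample 1) and in the strain comparison of untreated hindlimb. Every probe separately was not run between tables, where probes differ.

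The pairing was checked over 17 pairs of diaphragm and hindlimb arrays with the same label: r ran from -0.19 to 0.32 and 3 exceeded 0.1. Low correlation between ratios of unlike tissues cannot show whether a pair came from the same animals, which the labels do not name. The replicate block moved the genes called in L-arginine hindlimb between strains from 1 to 9. Between tables the 30 genes of BL10 hindlimb were 12 (6 higher, 6 lower) after centring, 16 (10 and 6) after quantile normalisation, 16 (7 and 9) with the print-order trend removed, 79 with low values at the lowest ratio, 4 without 12-week arrays and 5 without the 3 arrays. The 21 of mdx hindlimb were 10 (6 and 4), 5 (1 and 4) and 8 (3 and 5) under those scalings, 5 with low values set and 10 without 12-week arrays. The 4 of mdx diaphragm were 19 (14 and 5) after quantile normalisation, 14 without 12-week arrays, 12 without the 3 arrays and 0 with low values set or values on every array; the 0 of BL10 diaphragm were 19 (15 and 4) after quantile normalisation. The 4 that differed between tissues were 0 after centring, quantile normalisation, with low values set or without 12-week arrays, 1 with the trend removed and 10 with no age term. Strain in L-arginine hindlimb ran from 0 to 13 genes, and tissue in L-arginine mdx from 0 to 18. The causes were not tested.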
